A study of Mus musculus with 2 samples.

Results

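Erythroid cells and reticulocytes were sought in single-cell RNA libraries of sorted mouse blood as cell barcodes rich in globin RNA. A cell barcode is the tag carried by all molecules captured together, in principle those of 1 cell. A barcode was taken when the adult alpha globin genes Hba-a1 and Hba-a2 and the adult beta globin genes Hbb-bs and Hbb-bt together gave at least 20% of its unique molecular identifiers (UMIs, tags that count captured RNA molecules) and when S100a8 and S100a9, abundant genes of neutrophils, gave under 10%. Barcodes with fewer than 200 detected genes, or with over 20% of UMIs from mitochondrial genes, had been set aside first. Of 26438 barcodes left after this filter, 808 met the rule. They were 265 of 12921 in the young library and 543 of 13517 in the old one. The members were selected on their globin share, S100 share and gene number, so those values are given as a description and support nothing.

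The study compared blood neutrophils of young and old mice. Each age gave 1 library, from mice labelled male, aged 2 months in the young group and 24 months in the old group. In both groups red cells were lysed, live cells positive for CD45, CD11b and Ly6G were sorted, and the labels name BD Rhapsody beads, which capture RNA by its 3′ end. The labels give no strain, genotype, treatment or number of animals, and CD11b and Ly6G are antigens of myeloid cells, not of red cells.

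The young library held 69599479 UMIs in 13599 barcodes and the old library 128826996 UMIs in 14334. Xist, which is transcribed from an inactive X chromosome, was present at 160 and 210 CPM (UMIs per 1000000) of all UMIs of the young and old library, and the Y-linked gene Eif2s3y had 0 UMIs in both, which goes against the label of male mice. The Y-linked gene Ddx3y, which has a close copy on the X chromosome, had 1329 and 967 UMIs, and Uty had 14 and 3. The libraries shared 53 barcode sequences, and no barcode was a member in both. With 1 library per age, differences between the ages have no replicate check and no test was made. Intervals in parentheses are 95% and cover counting error only, exact binomial (Clopper-Pearson) for shares and exact conditional intervals for ratios of counts. All other levels are CPM of a set of barcodes summed together, with all globin genes and S100a8 and S100a9 left out of the total. A gene was called higher or lower from a 2-fold difference, with a pseudocount of 1 CPM. Where a pair of values is given, the young library comes first.

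Reticulocytes are red cells that have just expelled their nucleus. They cannot transcribe, and they use up stored messenger RNA, mostly globin, while they clear mitochondria and ribosomes and remodel their membrane. The remaining RNA codes for haem synthesis, for proteins of the red cell membrane, for enzymes that protect haemoglobin and for the ubiquitin and autophagy systems that dismantle the cell's contents. Nuclear RNAs such as Malat1 mark cells that still have a nucleus.

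The 4 globin genes of the rule are 2 pairs of near-identical copies, and their sequences show why the members of a pair are hard to tell apart. Hba-a1 (chr11:32283511-32284465, plus strand) and Hba-a2 (chr11:32296489-32297298, plus strand) differ at 1 of 426 coding bases, and Hbb-bs (chr7:103826534-103828096, minus strand) and Hbb-bt (chr7:103812524-103813996, minus strand) differ at 1 of 441, in GENCODE vM21 on GRCm38. Each stretch printed here is coding sequence of the gene's own strand around that base, which is in capitals, at chr11:32284313-32284372, chr11:32297130-32297189, chr7:103826668-103826727 and chr7:103812659-103812718 in the order printed.

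Hba-a1: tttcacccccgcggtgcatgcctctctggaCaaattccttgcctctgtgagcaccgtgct

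Hba-a2: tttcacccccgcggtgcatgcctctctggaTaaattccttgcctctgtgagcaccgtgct

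Hbb-bs: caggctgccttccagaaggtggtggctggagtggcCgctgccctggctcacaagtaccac

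Hbb-bt: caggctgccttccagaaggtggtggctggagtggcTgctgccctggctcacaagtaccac

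The differences are C381T between Hba-a1 and Hba-a2 and C417T between Hbb-bs and Hbb-bt, counted from 1 at the A of the start codon. Over the last 300 bases of the transcripts, where a 3′ method reads, 50.2% of the 100-base windows of Hba-a1 also occur in Hba-a2, and 20.9% of those of Hbb-bs occur in Hbb-bt. Counts of 1 copy against the other are therefore uncertain, more so for alpha globin, and the rule uses the sum of all 4.

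The members fell into a globin-dominated group and a mixed group. The globin share of a member was 20.5% at the lowest, 71.4% at the median and 96.8% at the highest in the young library, and 20.9%, 91.1% and 95.6% in the old. Most old members thus lay near the top of the range, and the young members were spread more widely. In all, 120 young and 442 old members had at least 80% globin, called high-globin members here, and 145 young and 101 old members had 20% to 80%, called mixed members. The 80% boundary was chosen after these values were seen. Few barcodes lay at it: 3 young and 11 old members had 75% to 80% globin, and 4 and 26 had 80% to 85%. At the rule's lower limit, 9 young and 8 old members had 20% to 25% globin, and 4 and 13 barcodes just outside had 15% to 20%. The limit on S100 RNA kept out 8 young and 99 old barcodes that had enough globin.

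**Figure D1:**
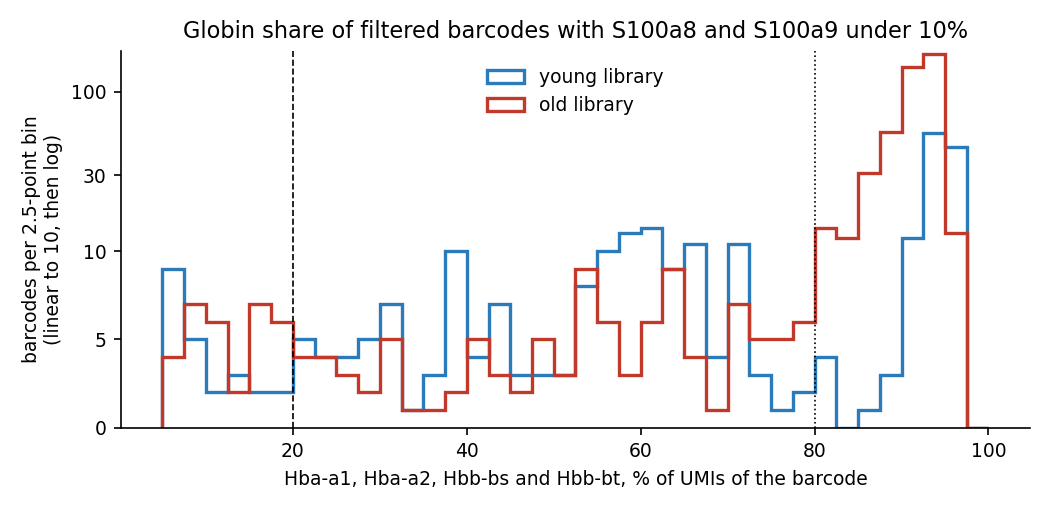
Number of filtered barcodes with under 10% S100 RNA (vertical axis, linear to 10 and then log) by globin share of their UMIs. The horizontal axis is the globin share in 2.5-point bins from 5% up, for the young and old library. The dashed line is the rule's 20% and the dotted line 80%; 442 old and 120 young barcodes lie at or above the dotted line.

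The globin-dominated members carried red cell RNA and little of the RNA of a nucleated blood cell, whereas the mixed members, summed together, carried both. Alas2, the first enzyme of haem synthesis in erythroid cells, stood at 27752 CPM in the young and 24272 CPM in the old high-globin members, at 2208 and 2262 CPM in the mixed members, and at 3.34 and 8.91 CPM in neutrophil-marker barcodes, the 4688 young and 9309 old barcodes with at least 10% S100 RNA and under 20% globin. Malat1 stood at 2925 and 1881 CPM in the high-globin members, at 15446 and 10576 CPM in the mixed members, and at 15628 and 14183 CPM in the neutrophil-marker barcodes. Ptprc, which codes for CD45, stood at 935 and 646 CPM in the high-globin members, 3331 and 1701 CPM in the mixed members and 3478 and 1959 CPM in the neutrophil-marker barcodes. Mixed members were thus close to the neutrophil-marker barcodes in Malat1 and Ptprc, and the high-globin members had lower levels of both than either set in both libraries.

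For equal depth, each barcode was thinned at random to 200 UMIs outside the globin and S100 genes. Malat1 was then found in 28.3% and 33.0% of high-globin members, 88.3% and 62.4% of mixed members and 91.3% and 89.5% of neutrophil-marker barcodes. The limits that follow are without thinning and depend on depth. High-globin members had a median of 491 and 475 such UMIs, against 3952 and 2820 in mixed members, so they reach a limit less easily. At least 20 UMIs of Malat1 were present in 1 of 120 young and 0 of 442 old high-globin members, and in 88.3% of 145 young and 51.5% of 101 old mixed members. At least 5 UMIs of Csf3r, the receptor for granulocyte colony-stimulating factor, were found in 3.33% of young high-globin members, in 82.1% of young mixed members and in 98.4% of young neutrophil-marker barcodes. In the old library the shares were 0.226%, 39.6% and 89.7%, so most old mixed members were below this limit. Thinned to 200 UMIs, Csf3r was found in 13.3%, 57.9% and 61.6% of these sets in the young library. In the old library the thinned shares were 8.14%, 32.7% and 37.6%. At least 5 UMIs of Alas2 were found in 95.8% and 96.4% of high-globin members, in 77.9% and 67.3% of mixed members and, in neutrophil-marker barcodes, in 0 of 4688 and 0.204% of 9309. Neutrophil markers gave at least 1% of UMIs outside the rule's genes in 84.1% and 70.3% of mixed members, and the platelet markers Pf4 and Ppbp did so in 3 and 17 of them. At least 5 UMIs of the monocyte genes Csf1r, Ccr2 and F13a1 were found in 10 and 16 mixed members, and at least 5 of the B cell genes Cd79a, Cd79b and Ms4a1 in 3 and 2. At least 3 UMIs of the T cell genes Cd3e, Cd3d and Cd3g were found in 1 and 3, and at least 3 of the natural killer cell genes Ncr1, Klrb1c and Klre1 in 6 and 2. Every mixed member held globin RNA by the rule, so those that passed a leukocyte limit held both kinds. How often Alas2 and leukocyte RNA passed their limits in the same barcode was not counted. The old mixed members were uneven, with 372 genes and 1 Malat1 UMI at the lower quartile, against 1428 genes and 40 in the young. The label of erythroid cell thus cannot be given to the mixed members as a group, which are called only by their globin share here. Whether a mixed barcode held 2 cells, or 1 cell with free globin RNA, was not tested.

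**Figure D2:**
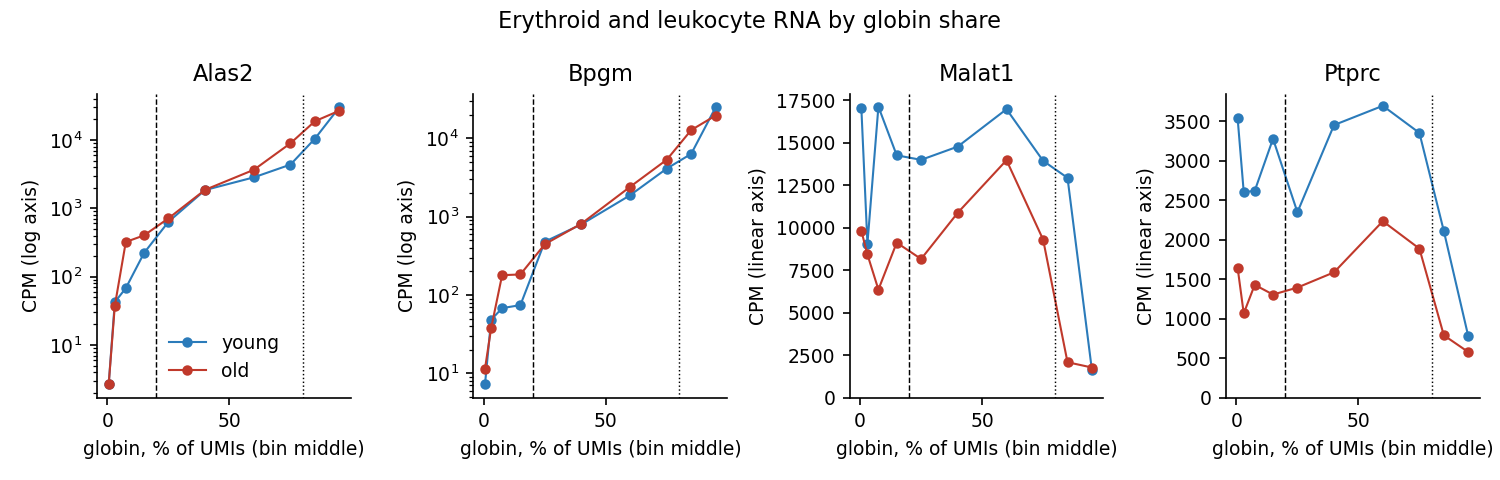
Summed level (vertical axis, CPM) of 4 genes in filtered barcodes with under 10% S100 RNA, binned by globin share, in each library. The axis is log for Alas2 and Bpgm and linear for Malat1 and Ptprc. Under 1% globin, these were 7721 of 12398 young and 3380 of 12271 old filtered barcodes. Alas2 rises from 2.70 and 2.69 CPM in barcodes under 1% globin to 29984 and 26744 CPM in those from 90%, while Malat1 drops to 2095 CPM from 80% in the old library and, in the young, stays at 12942 CPM in the 8 barcodes at 80% to 90% and drops to 1634 CPM from 90%.

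A mixed member held more RNA of other kinds than a high-globin member. High-globin members had a median of 9582.5 UMIs and 236 genes in the young library and 7020.5 UMIs and 268.5 genes in the old. Mixed members had 10455 and 6528 UMIs, close to the same total, with 1614 and 1203 genes. Outside the globin and S100 genes a high-globin member had only 491 and 475 UMIs at the median, against 3952 and 2820 in a mixed member. The level of most genes in the 808 members summed together is therefore set by the mixed members, which gave 688444 of 754781 such UMIs in the young library and 418598 of 658421 in the old.

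Most globin-dominated barcodes were removed by the limit of 200 genes. Under 200 genes, 649 young and 770 old barcodes met the globin and S100 limits, out of 660 and 801 barcodes with so few genes in all. Of these, 642 and 725 had at least 80% globin, against the 120 and 442 kept. Just inside the limit, 15 young and 42 old members had 200 to 210 genes, with Alas2 at 32680 and 28875 CPM. Just outside, 20 and 41 barcodes had 190 to 199 genes, with Alas2 at 39509 and 29882 CPM. These few-gene barcodes, with a median of 100 and 113 genes, are described beside the high-globin members below, as barcodes that the rule did not use.

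Haem synthesis genes were among the most abundant RNAs of the high-globin members after globin. Of 18 genes on the list, 6 reached the minimum of 200 CPM in the mean of both libraries, and these 6 were higher than in neutrophil-marker barcodes in both. Fech, the ferrochelatase that places iron in haem, stood at 5080 and 5316 CPM against 11.2 and 7.04 CPM. Slc25a37, mitoferrin, which brings iron into mitochondria, stood at 4372 and 6276 CPM against 57.2 and 46.8 CPM. Of the middle steps of the pathway, Urod stood at 241 and 354 CPM and Cpox had 0 CPM in the young and 29.2 CPM in the old library. Abcb6, a transporter of haem precursors, had no UMI in either. The RNA of Alas2, of Fech and of Slc25a37 was thus far more abundant than that of Urod and Cpox.

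Over all 573 genes at or above 200 CPM, 39.3% were higher and 24.6% lower in the high-globin members than in neutrophil-marker barcodes in both libraries, so a higher call is common. A gene that is high only in the members passes the minimum through them and had to differ, so the counts here describe the lists and support nothing. The median log2 difference over the tested genes was 8.26 for haem synthesis, 8.11 for membrane genes, 4.60 for maturation genes and 0.47 for all genes, as the mean of the libraries. Over all 808 members, 13.7% of 3107 genes at or above 50 CPM were higher and 1.42% lower than in neutrophil-marker barcodes. Among the 12 genes above 2-fold with the largest ratios there were Alas2, Apol11b, Bpgm, Car2, Cdr2, Prxl2a, Slc4a1, Tfdp2, Tspo2 and Ube2l6.

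RNAs of membrane proteins were present at lower levels than those of haem synthesis. Of 25 genes on the list, 8 reached 200 CPM, and Cd47, which all blood cells use as a signal against being eaten, was the exception among them that was not higher than in neutrophil-marker barcodes. Slc4a1 (chr11:102348824-102366203), the anion exchanger band 3, stood at 2126 and 2514 CPM and was under 1 CPM in neutrophil-marker barcodes. Tspo2, a cholesterol-binding membrane protein of erythroid cells, stood at 844 and 646 CPM. Of the skeleton below the membrane, Epb41, protein 4.1, stood at 4809 and 5312 CPM, Epb42, protein 4.2, at 226 and 200.2 CPM, and Ank1, ankyrin, at 136 and 171 CPM. Blood group genes were scarce, with Rhd at 121 and 54.2 CPM and Kel at 106 and 75.1 CPM.

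Genes of organelle clearance and protein removal gave some of the highest levels. Of 25 listed genes, 18 reached 200 CPM and 17 of those were higher than in neutrophil-marker barcodes in both libraries, the exception being Ube2h. Mkrn1, a ubiquitin ligase, stood at 23893 and 18238 CPM against 204 and 193 CPM. Bnip3l, the receptor that directs mitochondria to autophagy in reticulocytes, stood at 10055 and 8419 CPM against 227 and 238 CPM. Ube2l6, a conjugating enzyme, stood at 7070 and 7139 CPM against 4.86 and 17.3 CPM. The autophagy genes Gabarapl2 and Map1lc3b stood at 5140 and 4416 CPM and at 4447 and 3895 CPM. Ube2o, the enzyme that marks ribosomal and other proteins for removal in reticulocytes, stood at 2156 and 2673 CPM, and Trim10, a ligase of erythroid cells, at 1025 and 659 CPM.

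Of 15 further late erythroid genes found in the files, 11 reached 200 CPM, and all 11 were higher than in neutrophil-marker barcodes. Tent5c is on this list and on the maturation list, and Bpgm is on this list and that of glycolysis. Bpgm (chr6:34476207-34505613), the mutase that makes the phosphate compound which lowers the oxygen affinity of haemoglobin, stood at 22793 and 17446 CPM against 3.90 and 8.75 CPM. Isg20, an exonuclease, stood at 4613 and 4011 CPM. Car2, a carbonic anhydrase, stood at 4070 and 4282 CPM, while Car1, another carbonic anhydrase known from red cells, had no UMI in either library. Tent5c, which lengthens poly(A) tails, stood at 7206 and 7931 CPM.

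**Figure D3:**
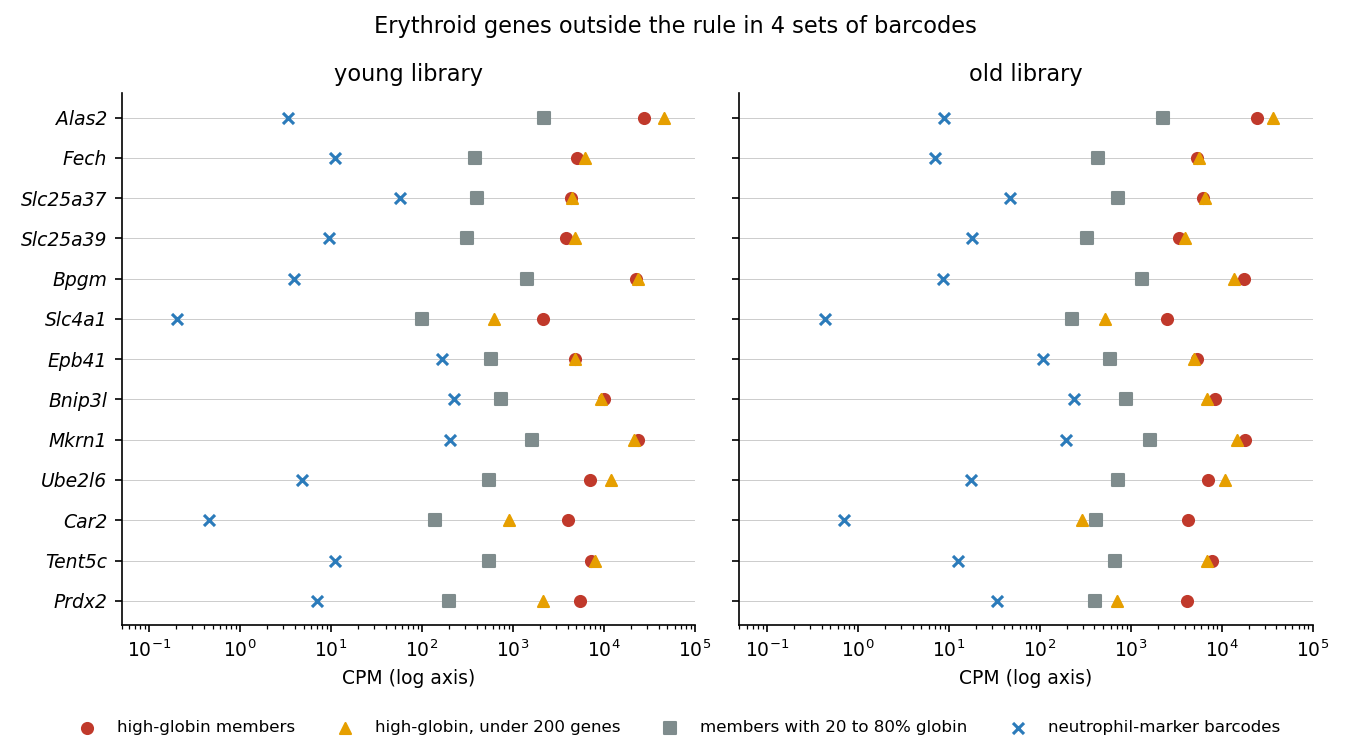
Summed level (horizontal axis, CPM, log axis) of 13 erythroid genes that the rule did not use, in the high-globin members, in globin-dominated barcodes under 200 genes, in mixed members and in neutrophil-marker barcodes of the young (left) and old (right) library. In both libraries the high-globin members lie to the right of the mixed members and of the neutrophil-marker barcodes for all 13 genes, for example Bpgm at 22793 and 17446 CPM.

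Antioxidant and iron storage genes were mixed. Of 9 antioxidant genes at or above 200 CPM, Gpx1, Prdx2, Cat and Gclm were higher than in neutrophil-marker barcodes and Prdx5, Gsr and Txn1 lower. Gpx1, a glutathione peroxidase, stood at 22567 and 16541 CPM against 756 and 1310 CPM. Prdx2, the main peroxiredoxin of red cells, stood at 5442 and 4124 CPM against 6.94 and 33.7 CPM. Among iron genes Ftl1, the ferritin light chain, stood at 18225 and 16491 CPM and was higher, as was Ncoa4, which delivers ferritin to be broken down, at 2050 and 2143 CPM. Fth1, the heavy chain, was within 2-fold of the neutrophil-marker level in the young library. Fbxl5, an iron sensor that removes iron regulatory protein, was lower.

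Several genes of iron uptake and of erythroid transcription were near the detection limit. Tfrc, the transferrin receptor that reticulocytes shed as they mature, was found in 1 of 120 young and 8 of 442 old high-globin members. Gata1 had 0 and 2 UMIs and Klf1 0 and 1 UMI over all high-globin members, although both factors drive the erythroid programme in nucleated precursors. Gfi1b, Epor and Kit had 0 UMIs in both libraries. At these depths a count of 0 allows up to 45.2 CPM in the young and 12.5 CPM in the old library. Of 17 transcription factors listed, 3 reached 200 CPM. They were Lmo2, a partner of Gata1, at 633 and 442 CPM, E2f2, a cell cycle factor, at 271 and 480 CPM, and Foxo3, a factor of oxidative stress responses, at 241 and 175 CPM.

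The 20 listed cell cycle genes summed to 2683 and 2469 CPM in the high-globin members, against 1852 and 2015 CPM in neutrophil-marker barcodes. Outside Ube2c, Hmgb2, H2afz and Stmn1, no high-globin member had 3 or more UMIs of the listed genes. Of the deeper neutrophil-marker barcodes only 0.299% and 1.24% reached that limit, so the absence shows little. Ube2c, a conjugating enzyme of the anaphase-promoting complex, stood at 1990 and 1418 CPM, against 0.355 and 10.1 CPM in neutrophil-marker barcodes. Mki67, a marker of dividing cells, stood at 0 and 33.4 CPM. Among interferon-stimulated genes Rsad2, an antiviral enzyme, stood at 4628 and 4770 CPM against 184 and 47.7 CPM, and Isg15, a ubiquitin-like protein, at 1899 and 1476 CPM against 147 and 67.9 CPM. Other genes of that response did not share this, with Ifit3 at 15.1 and 8.34 CPM.

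Markers of other cell types were uneven among the high-globin members. The B cell, T cell, natural killer cell, dendritic cell and progenitor lists had no gene at or above 200 CPM. No high-globin member reached the UMI limits given for the mixed members for B cell, T cell, natural killer cell or monocyte genes. With a median of only 491 and 475 UMIs outside the globin and S100 genes, a barcode could hardly reach these limits. Their absence thus shows little. Platelet markers Pf4 and Ppbp gave at least 1% of UMIs outside the rule's genes in 5.83% of young and 3.17% of old high-globin members. All 6 platelet genes tested were higher than in neutrophil-marker barcodes. Neutrophil markers summed to 7567 CPM in the young and 27733 CPM in the old high-globin members, against 39904 and 89359 CPM in the neutrophil-marker barcodes of the same libraries. They gave at least 1% of UMIs outside the rule's genes in 23.3% (16.1 to 31.9) of young and 98.4% of old high-globin members. The neutrophil signal of the high-globin members was thus lower than in neutrophil-marker barcodes of the same library. It was higher in the old library than in the young. The neutrophil-marker barcodes, set by their S100 share, were 36.3% of filtered barcodes in the young library and 68.9% in the old.

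RNA of the sort antigens was found in fewer high-globin members than neutrophil-marker barcodes. Ly6g, the sorted antigen's gene, had at least 1 UMI in 1.67% of young and 28.3% of old high-globin members, against 31.0% and 87.8% of neutrophil-marker barcodes. Thinned to 200 UMIs per barcode, with the rule's genes left out and no barcode lost, the shares were 0.833% and 10.9% against 3.24% and 21.3%. The young share rested on 1 barcode, so Ly6g hardly separates the sets there. At the same depth Ptprc was found in 15.8% and 9.95% against 48.8% and 33.0%. Itgam, which codes for CD11b, was found in 1.67% and 2.94% against 14.8% and 14.3%. Alas2 at the same thinned depth was found in 98.3% and 99.3% of high-globin members and in 0.0213% and 0.193% of neutrophil-marker barcodes. How a barcode with so little RNA of the sort antigens came through the sort was not tested.

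Within the globin-dominated barcodes, RNA content changed with the number of genes detected. Gpx1 rose from 1128 CPM in young barcodes under 100 genes to 16153 CPM at 150 to 199 genes and 28223 CPM at 250 to 299 genes. In the old library it rose from 1012 to 7725 and 16155 CPM over the same bins. Car2 rose from 133 to 5152 CPM in the young library and from 0 to 3067 CPM in the old between the bins under 100 and at 250 to 299 genes. Slc4a1 moved in the same way, from 133 to 2408 CPM and from 37.5 to 2195 CPM. Alas2 moved differently, with its highest level at 100 to 149 genes, 52350 and 43412 CPM, and 26263 and 26830 CPM at 250 to 299 genes. Gpx1, Car2 and Slc4a1 RNA was thus scarcest where fewest genes were detected, while Alas2 RNA was not. These 4 genes were chosen after their values were seen.

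The beta globin copies moved along the same axis. Hbb-bs gave 90.3% and 94.9% of Hbb-bs and Hbb-bt UMIs in barcodes under 100 genes, 79.9% and 81.5% at 150 to 199 genes and 78.6% and 80.4% at 250 to 299 genes. Gene number moves with depth, since the median UMIs of a barcode rose from 2779 under 100 genes to 10494 at 300 genes or more in the young library and from 1364 to 8341 in the old. The part of depth in these changes was not tested. In the young bin of 300 genes or more, which held 22 barcodes, Malat1 stood at 6587 CPM, and Gpx1 was lower than in the bin before it, at 16012 CPM.

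**Figure D4:**
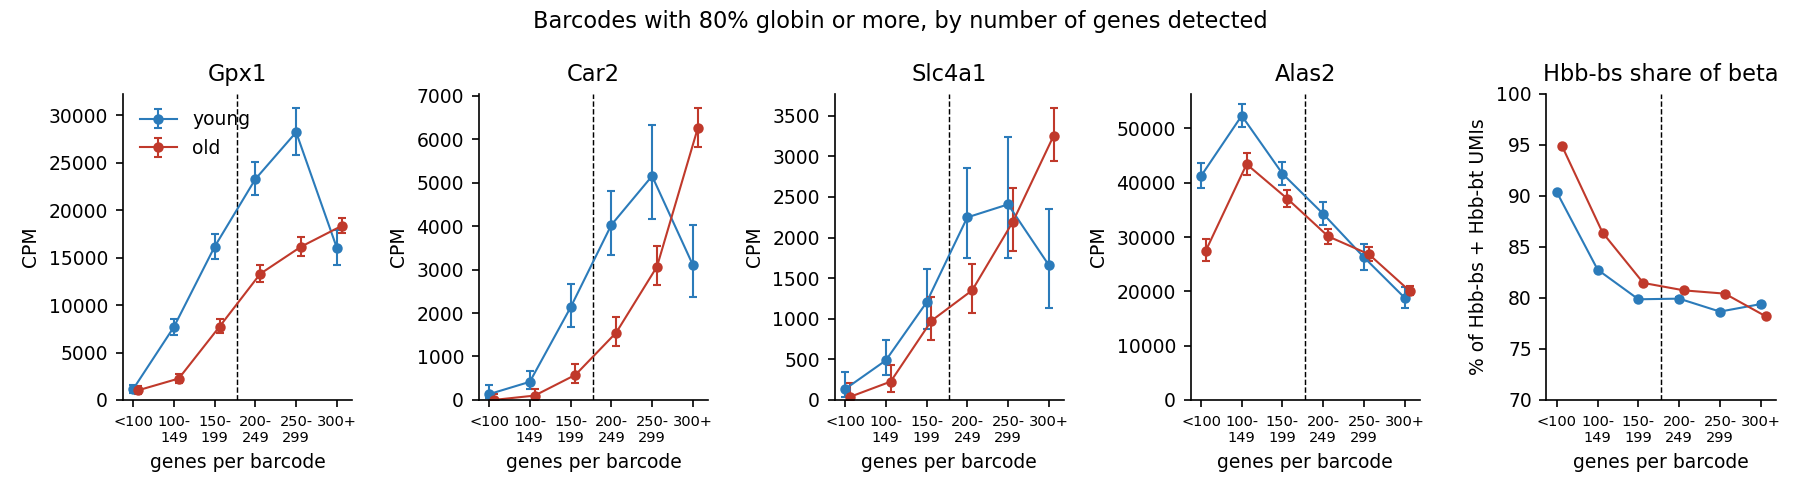
Summed level (vertical axes, CPM, from 0) of Gpx1, Car2, Slc4a1 and Alas2, and the share of Hbb-bs in beta globin UMIs (last panel, %, axis from 70), in barcodes with at least 80% globin, by number of genes detected, in the young and old library. Bars are 95% counting intervals and the dashed line is the filter at 200 genes; Gpx1 in the old library rises from 1012 CPM under 100 genes to 18353 CPM at 300 or more.

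High-globin members differed from the few-gene barcodes in fewer genes than from neutrophil-marker barcodes. Of 549 genes tested, 7.65% were higher in the high-globin members in both libraries and 0.364% lower, the lower ones being Lars2 and Gphn. Gene number separates these sets by construction, so this is a description. The 5 haem synthesis genes tested were within 2-fold in at least 1 library each, with Alas2 at 45738 and 37041 CPM in the few-gene barcodes. Of 7 membrane genes tested, 3 were higher in the high-globin members, Slc4a1 and Bsg among them. Slc4a1 stood at 627 and 525 CPM in the few-gene barcodes. Tent5c, at 7911 and 6928 CPM, and Epb41, at 4865 and 4911 CPM, had nearly the same level in both sets.

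The ratio of alpha to beta globin UMIs was below 1 in the high-globin members. It was 0.761 (0.758 to 0.764) in the young and 0.686 (0.685 to 0.688) in the old library for the summed UMIs. Per barcode it was 0.345 at the lowest, 0.757 at the median and 1.12 at the highest in the young library, and 0.444, 0.695 and 1.16 in the old. The ranges of the ages overlap almost fully, and the middle 50% of barcodes lay at 0.711 to 0.805 and 0.628 to 0.754. The few-gene barcodes gave 0.760 and 0.710, and the mixed members 0.774 and 0.710. The globin RNA found in neutrophil-marker barcodes, a median of 6 and 13 UMIs, had ratios of 0.668 and 0.635. The globin genes were used by the rule, and the ratio of UMIs also depends on how well each transcript is captured, so it is no ratio of proteins.

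Hba-a1 gave 55.8% and 57.3% of alpha UMIs, and Hbb-bs 79.5% and 79.6% of beta UMIs, in high-globin members. In neutrophil-marker barcodes Hbb-bs gave 87.9% and 86.8%, nearer to the few-gene barcodes at 84.0% and 85.8%. Embryonic globins were at most a trace. Hba-x had 1 UMI in each library, Hbb-y and Hbb-bh2 had none, and Hbb-bh1 had 0 and 8. The theta-like genes Hbq1a and Hbq1b had 33 and 29 UMIs in the young library and 33 and 67 in the old, and as close copies their split is uncertain.

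Members made up 2.05% (1.81 to 2.31) of filtered barcodes in the young library and 4.02% (3.69 to 4.36) in the old. The high-globin members made up 0.929% (0.771 to 1.11) and 3.27% (2.98 to 3.58), and the mixed members 1.12% (0.948 to 1.32) and 0.747% (0.609 to 0.907), so the share was higher in the old library for the high-globin members and lower for the mixed ones. Without the S100 limit, an alternative added after seeing the data, barcodes with 20% to 80% globin were 153 (1.18%, 1.005 to 1.39) in the young and 200 (1.48%, 1.28 to 1.70) in the old library, the opposite order. Without the filter on genes, barcodes with at least 80% globin were 5.60% of the young and 8.14% of the old library. With at least 500 genes required and at most 10% mitochondrial UMIs, members were 1.16% of the young and 0.681% of the old library, in the opposite order. Red cell lysis, the sort gate and the depth of the library can each set such shares, and their part cannot be told apart from age here.

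Summed over all members, genes of 4 erythroid lists were mostly higher in the old library, which was not seen within the high-globin members. Of 3107 genes at or above 50 CPM, 8.66% were higher and 20.9% lower in the old members, with a median log2 ratio of −0.42 over all genes. Haem synthesis had 6 of 7 tested genes higher, membrane genes 7 of 9, maturation genes 12 of 18 and late erythroid genes 9 of 12, and none lower, with median log2 ratios of 1.38, 1.38, 1.21 and 1.28. Erythroid transcription factors had 1 higher and 1 lower of 7, with a median of −0.52, and genes of erythropoietin receptor signalling 1 higher and 2 lower of 5, with a median of −0.75. Within the high-globin members the medians of the first 3 lists were −0.06, −0.12 and −0.16, and none of their 6, 8 and 18 tested genes reached 2-fold either way. The late erythroid list had a median of −0.20 there, with Cdc25b and Fam220a of 11 tested genes lower. The mixed members were 145 of 265 in the young library and 101 of 543 in the old.

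The split of calls in all members changed with the scaling. There were 269 genes higher and 648 lower with the total used here, 17 and 412 with the total of all UMIs, and 519 and 214 after centring on the median gene. By the rule for naming genes, the 10 highest included Camp, Ltf, Ly6g, Mgst3, Ngp, Slc7a5, Tmem176b, Tpm2 and Vcan. The 10 lowest were AU019990, Arhgap5, Galm, Gzma, Kansl1l, Klre1, Pdzd8, Plxnc1, Ralgps1 and Sugct. Camp, Ltf, Ly6g and Ngp are neutrophil genes, and Gzma and Klre1 are genes of natural killer cells. No gene among the 10 highest and 10 lowest was on an erythroid list.

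Most red cell genes differed by less than 2-fold between high-globin members of the old and young library. Of 573 genes, 12% were higher and 4.89% lower in the old library, and in the few-gene barcodes 13.8% and 5.76% of 556 were, with median log2 ratios over all genes of 0.04 and 0.11. With the total of all UMIs, globin included, the medians were 0.45 and 0.69, and 122 genes were higher and 6 lower in the high-globin members, against 69 and 28, and 177 and 6 in the few-gene barcodes, against 77 and 32. Small differences therefore depend on the total used. No haem synthesis, membrane, maturation, iron or transcription factor gene among those tested in the high-globin members was past 2-fold, while 2 of 11 late erythroid genes were. In the few-gene barcodes 2 of 7 membrane genes were lower in the old library, Tspo2 among them. Of 11 late erythroid genes there, Blvrb, Car2, Cdc25b and Fam220a were lower, with a list median of −0.90. Hemgn, an erythroid nuclear protein below the minimum, rested on 10 young and 9 old UMIs in the high-globin members. Alas2 was 0.87-fold (0.83 to 0.92) in old relative to young, and Bpgm 0.77-fold. With the total of all UMIs their log2 ratios turned from −0.19 and −0.39 to 0.23 and 0.04, and per 1000 globin UMIs Alas2 stood at 1.70 and 2.05. Slc25a37 was 1.44-fold (1.27 to 1.63) and 1.45-fold in the few-gene barcodes. Slc4a1 was 1.18-fold (0.98 to 1.43), an interval that includes 1, and its direction turned in the few-gene barcodes, with a log2 ratio of −0.26.

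Gpx1, Prdx2 and Isg15 were lower in the old library, by less than 2-fold in the high-globin members and by a larger factor in the few-gene barcodes. Gpx1 was 0.73-fold in the high-globin members and 0.51-fold in the few-gene barcodes, and Prdx2 0.76-fold and 0.33-fold. Isg15 was 0.78-fold and 0.29-fold. With the total of all UMIs the log2 ratios of Gpx1, Prdx2 and Isg15 in the high-globin members were −0.03, 0.02 and 0.06, so no direction held there. In the few-gene barcodes they were −0.33, −0.97 and −1.13. At 200 UMIs per barcode, Slc4a1 was found in 29.2% (21.2 to 38.2) of young and 30.5% (26.3 to 35.1) of old high-globin members, and Car2 in 40.0% (31.2 to 49.3) and 35.1% (30.6 to 39.7). Without thinning the shares were 51.7% and 53.2% for Slc4a1 and 53.3% and 51.6% for Car2. Both genes were under 1 CPM in neutrophil-marker barcodes. The young few-gene barcodes also had a higher median depth, 5179 UMIs against 2731 in the old.

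Some genes were past 2-fold in the same direction in the high-globin members and in the few-gene barcodes. Of 490 genes tested in both, 10.4% were higher and 2.04% lower in the old library in both sets. Among the 51 higher genes, 33 were also at least 2-fold lower in the high-globin members than in neutrophil-marker barcodes, and the 2 that were at least 2-fold above them were Apol11b and Crip1. Among the 10 lower genes, 7 were at least 2-fold above neutrophil-marker barcodes: AY036118, Cdc25b, Diaph3, Fam220a, Snx15, Tfdp2 and Ubb. These 9 genes were chosen after their values were seen. With the total of all UMIs, 90 genes were higher and 1, Sugct, lower in both sets, so none of the 7 lower genes stayed past 2-fold in both.

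Apol11b (chr15:77633946-77643286), of the apolipoprotein L family, stood at 1010 CPM in the young and 2610 CPM in the old high-globin members, a ratio of 2.58 (2.01 to 3.38). In the few-gene barcodes it stood at 355 and 1099 CPM, a ratio of 3.10, and it was under 1 CPM in neutrophil-marker barcodes of both libraries. It was thus higher in the old library in both sets of globin-dominated barcodes, as it was with the total of all UMIs, at 3.42-fold and 4.50-fold. Crip1, a small LIM-domain protein, rested on 5 young and 79 old UMIs.

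Ubb, a polyubiquitin gene, was higher in the young library. It stood at 31837 CPM in the young and 15340 CPM in the old high-globin members and at 21369 and 8650 CPM in the few-gene barcodes, with young over old ratios of 2.08 (1.97 to 2.19) and 2.47 (2.30 to 2.66). In neutrophil-marker barcodes it stood at 2832 and 2734 CPM. Tfdp2, a partner of E2F transcription factors, stood at 3377 and 1580 CPM in the high-globin members, a young over old ratio of 2.14 (1.80 to 2.53). Diaph3, a formin that builds actin filaments, stood at 1010 and 371 CPM, a ratio of 2.72 (1.95 to 3.78). Cdc25b, a cell cycle phosphatase, had a ratio of 2.08 (1.41 to 3.02), and Fam220a one of 2.74 (2.13 to 3.53). With the total of all UMIs the young over old ratios in the high-globin members were 1.55 for Ubb, 1.59 for Tfdp2, 1.53 for Cdc25b, 1.997 for Diaph3 and 2.03 for Fam220a, which ends the 2-fold call of all but Fam220a.

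Several neutrophil genes differed between the ages by more than 5-fold. Of 14 tested neutrophil markers, 9 were higher and 1 lower in the old high-globin members, with a median log2 ratio of 2.14. Camp, cathelicidin, was 10.1-fold (5.44 to 21.3) and Ngp, a neutrophil granule protein, 22.4-fold (11.3 to 52.0) in old relative to young. The neutrophil-marker barcodes of the same libraries held Camp at 718 and 6372 CPM and Ngp at 1209 and 11855 CPM. Retnlg, another neutrophil gene, was 5.46-fold (4.59 to 6.53) in the high-globin members and stood at 14030 and 30574 CPM in neutrophil-marker barcodes. Csf3r was the gene that went the other way, with a young over old ratio of 2.93 (2.19 to 3.90).

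Of 5 glycolysis genes tested, Aldoa, Gapdh and Pkm were higher in the old high-globin members and none lower, where 12% of all genes were higher. These 3 genes had 10, 15 and 5 UMIs in the young library and were lower in the high-globin members than in neutrophil-marker barcodes of both libraries. Bpgm, the most abundant of the 5, was 0.77-fold. Prdx5 and Pgd, H2afz, Hspa8 and Ifitm3 were the other listed genes that were higher, outside the marker, sort antigen and ribosomal protein lists. Of 67 ribosomal protein genes tested, 10 were higher and none lower, with a median log2 ratio of 0.55, while the 9 mitochondrial genes tested had a median of 0.07 and no call. S100a8 and S100a9, left out of the total, stood at 17623 and 78582 CPM of UMIs other than globin in the high-globin members and at 163560 and 288680 CPM in neutrophil-marker barcodes. The part of neutrophil RNA in the difference between the ages was not tested.

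**Figure D5:**
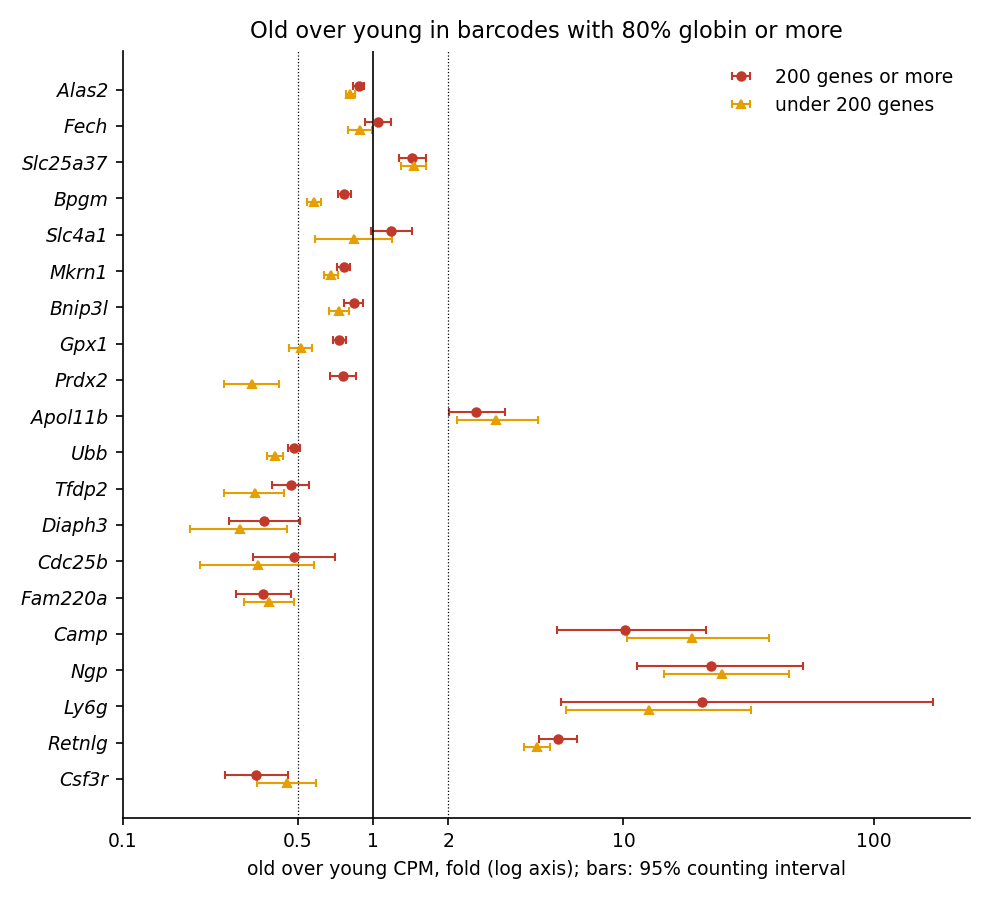
Ratio of old to young CPM (horizontal axis, fold, log axis) of 20 genes in barcodes with at least 80% globin, for those with 200 genes or more and those under 200 genes. Bars are 95% counting intervals and dotted lines mark 2-fold; the haem gene Alas2 lies at 0.87 and the neutrophil gene Ngp at 22.4 among barcodes with 200 genes or more.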

How the data were processed

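UMI counts per gene and barcode were deposited by the authors as 1 matrix per library, made with Cell Ranger 7.2.0 per the file headers; the submitters' processing notes name Cell Ranger and mm10. The labels name BD Rhapsody, and how its barcodes and UMIs were read for Cell Ranger is not given in the sources used here. The annotation release, how barcodes were called as cells and how reads that fit several genes were counted are not given in the sources used here. The lowest barcode total was 500 UMIs, and the median was 4246 (young) and 7265.5 (old).

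From these counts, members were chosen as described, summed by library and scaled to CPM with Python 3.11.15, numpy 2.4.6, scipy 1.17.1 and pandas 2.3.3, and drawn with matplotlib 3.10.9. Genes entered a comparison from a mean of 50 CPM over both libraries, or 200 CPM for globin-dominated barcodes. The 12 genes with the largest ratio to neutrophil-marker barcodes and the 10 highest and 10 lowest between ages were named by rule. Members and gene lists were chosen with earlier results of these data known, and the 80% boundary and the genes named from it after seeing these values. Some genes of these lists are not reported here. Listed symbols Ahsp and Fam132b are not used here. No doublet caller was run; an alternative leaves out members with 1% or more of UMIs from other types' markers. Of the members, 2 carried a barcode sequence also found in the other library. Ratios, intervals and thinning were checked on simulated data. Alternatives changed the globin, S100, gene and CPM minimums, the total, the weighting, the pseudocount and the depth.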

Additional observations from a re-analysis of the deposited data

How the results depend on the processing

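With 1 library per age nothing measures the spread between animals, and depth limits genes under 200 CPM in the high-globin members. No paired analysis was possible because there is 1 library per age. The 80% globin settings and all alternatives for single genes were chosen after seeing the data.

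The share of members, 2.05% (young) and 4.02% (old), became 1.62% in the young with a globin minimum of 50%. It became 1.37% and 3.43% with S100 under 2%, 6.72% and 9.16% with no barcode filter, and 1.16% and 0.681% with 500 genes and 10% mitochondrial UMIs, the reverse order. The minimum of 500 genes left out most high-globin members. At 80% globin it was 0.929% and 3.27%, and 5.60% and 8.14% without the filter. The median globin share became 93.7% and 91.8% with S100 under 2%, and 95.8% and 92.5% with no filter. The alpha to beta ratio was 0.764 in the young at 50% globin, and 0.761 and 0.686 at 80%.

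Against neutrophil-marker barcodes, 425 genes were higher and 44 lower in the members. The counts were 264 higher at 50% globin, 659 higher and 324 lower with S100 under 2%, 50 and 589 with the total of all UMIs, and 795 and 69 with a minimum of 20 CPM. Equal weight per barcode gave 214 lower, and members under 1% of other types' markers 143 lower. At 80% globin there were 225 and 141, and 173 and 131 under 200 genes.

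Between ages, 269 genes were higher and 648 lower in the old members. The counts were 17 and 412 with the total of all UMIs, 450 and 1075 with a minimum of 20 CPM, 519 and 214 after centring, and 155 higher with equal weight. At 80% globin they were 69 and 28, and 77 and 32 under 200 genes. The median log2 ratios of haem synthesis, membrane and maturation genes reversed, to −0.062, −0.12 and −0.16 at 80% globin and to −0.30, −0.26 and −0.24 under 200 genes. At 80% globin the mixed members are left out by construction; the cause of the other changes was not tested.

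For 18 single genes in the high-globin members, 154 of 162 alternatives left the ratio between ages within 0.5 on the log2 scale and 8 moved it further. The sign changed in 8 alternatives of 6 genes, all under 2-fold. Alas2, Bpgm, Isg15 and Prdx2 turned with the total of all UMIs, to 0.23, 0.04, 0.06 and 0.02, and Slc4a1 and Fech in barcodes under 200 genes, to −0.26 and −0.17. Slc4a1 also turned at 90% globin, to −0.32, and Fech with S100 genes kept in the total, to −0.03. Ubb, Tfdp2 and Diaph3 lost their 2-fold call with the total of all UMIs, at −0.63, −0.67 and −0.998.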
